A study of Mus musculus with 6 samples.

Results

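The broad shared domains described here were 653 autosomal regions, each at least 10 kb wide, that carried trimethylated lysine 27 of histone H3 (H3K27me3) in spermatogenic cells of both control and Ezh2 mutant mice. They were chosen by merging the MACS2 peak lists of the 4 libraries wherever peaks touched or overlapped, and by keeping the regions of 10 kb or more that held a peak in every library. They made up 1.20% of the 54594 merged autosomal regions and 3.29% of the 19873 that held a peak in all 4 libraries. All 653 merged regions of 10 kb or more met the condition on the 4 libraries, so the condition removed none of them. Controls were MvhCre;Ezh2fl/+ and mutants MvhCre;Ezh2fl/fl, both on a mixed background and 6 weeks old, and every animal carried the Cre transgene and at least 1 floxed allele. Mvh-Cre is active in germ cells, so the controls had lost at most 1 copy of Ezh2 there, and the somatic cells left in the preparation were not targeted. Each genotype had 2 libraries made with the antibody ab6002, from cells of which 90% were spermatogenic by microscopy, per the labels' protocols. The series' design text also names the cells as spermatocytes, and interval lists without an mm9 annotation do not allow a check of cell markers. The input samples were not analysed here. Whether the libraries of 1 genotype were made from different animals is not said in the labels, so p-values measure only the spread between libraries, which may be technical, and the peak lists cannot show how completely Ezh2 was removed. A smaller share of cells carrying the mark and less of it per cell cannot be told apart in these bulk lists.

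Polycomb repressive complex 2 (PRC2) writes H3K27me3 through 1 of its alternative methyltransferase subunits, EZH2 and EZH1. The complex binds its own product through the subunit EED, which stimulates the enzyme and helps the mark spread along neighbouring nucleosomes into wide domains. Such domains are best known over genes of embryonic patterning and lineage choice, which carry CG-rich promoters and are silent in germ cells. The series addresses how far EZH1 sustains PRC2 function in germ cells that lack EZH2.

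PRC2 is recruited to CG-rich promoters, so the 250 bases before the start of 4 genes from the widest domains are printed here, 5′ to 3′, with each CG in capitals. They are RefSeq sequences of the build GRCm38.p6, and no position was carried between that build and the mm9 coordinates of the domains. Hoxa13 (minus strand, chr6:52260881-52261130) is the last gene of the Hoxa cluster, Hand2 (plus strand, chr8:57320733-57320982) encodes a factor of heart and limb development, Sox2 (plus strand, chr3:34649745-34649994) a pluripotency and neural factor, and Gata3 (minus strand, chr2:9878601-9878850) a factor of T cell, kidney and inner ear development.
Hoxa13: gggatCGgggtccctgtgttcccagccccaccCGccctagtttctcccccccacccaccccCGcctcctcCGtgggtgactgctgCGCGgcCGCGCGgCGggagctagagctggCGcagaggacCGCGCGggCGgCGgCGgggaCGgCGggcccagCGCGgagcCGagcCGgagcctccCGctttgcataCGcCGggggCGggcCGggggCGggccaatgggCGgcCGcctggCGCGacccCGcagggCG
Hand2: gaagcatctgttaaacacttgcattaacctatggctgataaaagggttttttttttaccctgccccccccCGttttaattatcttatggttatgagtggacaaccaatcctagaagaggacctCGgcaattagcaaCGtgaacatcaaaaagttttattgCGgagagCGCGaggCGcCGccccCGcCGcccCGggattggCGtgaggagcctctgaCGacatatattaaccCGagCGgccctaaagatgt
Sox2: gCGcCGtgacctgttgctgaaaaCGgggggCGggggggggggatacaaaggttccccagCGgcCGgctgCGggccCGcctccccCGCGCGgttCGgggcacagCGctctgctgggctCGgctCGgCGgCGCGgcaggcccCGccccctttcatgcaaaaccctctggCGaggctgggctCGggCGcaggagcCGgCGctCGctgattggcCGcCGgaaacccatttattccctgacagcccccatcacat
Gata3: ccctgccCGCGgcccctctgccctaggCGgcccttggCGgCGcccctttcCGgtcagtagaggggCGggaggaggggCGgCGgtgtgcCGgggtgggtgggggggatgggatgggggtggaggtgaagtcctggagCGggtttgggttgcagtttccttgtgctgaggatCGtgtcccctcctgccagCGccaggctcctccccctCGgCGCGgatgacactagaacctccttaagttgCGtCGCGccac
The window of Hoxa13 held 35 CG, counted on 1 strand since the motif reads the same on both, that of Sox2 27, that of Gata3 19 and that of Hand2 15. The median over 32851 promoter windows of the same length was 6. At least as many CG were held by 2.97% of all windows for Hoxa13, 8.56% for Sox2, 19.7% for Gata3 and 27.3% for Hand2. These counts describe 4 chosen windows and were not made over the genes of all domains.

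The domains were mostly narrow for their class, with a long upper tail. Their width ran from 10001 bp to 129 kb, with a median of 13 kb and quartiles of 11.1 and 17.8 kb, and they summed to 10.4 Mb. Of the 653, 154 were 10 to 11 kb wide, 224 reached 15 kb, 129 reached 20 kb, 7 exceeded 40 kb and 3 exceeded 100 kb. At the threshold, the 3 narrowest domains were 10001, 10008 and 10012 bp wide and the 3 widest shared regions left out were 9997, 9991 and 9989 bp. Among the former, chr16:18614153-18624153 was covered by MACS2 peaks over 48.5% and 49.9% in control and 82.6% and 78.2% in mutant libraries. Among the latter, chr2:121118712-121128702 was covered over 58.2% and 54.6% in control and 97.0% and 83.7% in mutant libraries. In both regions the mutant peaks covered more. The reverse held at chr14:63880475-63890482, just inside, with 84.7% and 93.0% in control and 72.2% and 79.7% in mutant libraries, and at chr17:87147447-87157443, just outside, with 86.4% and 97.0% in control and 69.2% and 77.3% in mutant libraries. Of the other two, chr11:114282504-114292515, just inside, had 69.8% and 75.2% in control and 96.1% and 54.0% in mutant libraries, and chr6:121328060-121338048, just outside, had 22.3% and 24.6% in control and 100% and 60.6% in mutant libraries. When peaks of 1 genotype alone were merged, 386 domains held a region of 10 kb or more from the controls and also 1 from the mutants, 73 from the controls only, 157 from the mutants only and 37 from neither.

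Chromosomes 2 and 11 held the most domains, 64 each, which was 4.04% and 4.68% of their shared regions. Chromosome 16 held the fewest, 12 or 1.91%. Domains lay close to one another: 208 of 653 (31.9%) had another domain within 100 kb, against 659 of the 3145 shared regions of 5 to 10 kb (21.0%). The median distance to the nearest domain was 324 kb from a domain and 632 kb from a region of 5 to 10 kb. Neighbours within 100 kb formed 89 groups of at least 2 domains, of which 21 had at least 3. The only group of 5 spanned 207 kb at chr4:139358197-139565663. The nearest shared region of any width lay a median of 6.12 kb from a domain and 10.5 kb from a region of 5 to 10 kb.

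The Hox clusters, whose transcription factors set position along the body axis, gave the widest domains. In mm9 these were the Hoxa cluster (chr6:52099357-52228388, 129 kb), the Hoxc cluster (chr15:102736937-102853462, 117 kb), the Hoxb cluster (chr11:96108993-96219855, 111 kb) and the Hoxd cluster (chr2:74484372-74554982, 70.6 kb). Hoxb13, which is set apart from the rest of its cluster, had its own domain (chr11:96027494-96071380, 43.9 kb), and a second Hoxd domain (chr2:74555882-74593083, 37.2 kb) followed the first after a gap of under 1 kb. Bins of hiddenDomains, a second caller that the choice of domains did not use, covered 113 and 112 kb of the Hoxa domain in control and 119 and 117 kb in mutant libraries. Both mutants thus lay above both controls there, but the difference, 0.06 on the log2(kb + 1) scale (SE 0.044, limma adjusted p = 0.452), did not pass. The Hoxc domain was binned over 103 and 106 kb in control and 108 and 101 kb in mutant libraries. For Hoxb the lengths were 102 and 102 kb in control and 105 and 102 kb in mutant libraries, and for Hoxd 68.0 and 68.8 kb in control and 69.4 and 67.8 kb in mutant libraries. Hoxb13 had 35.8 and 34.0 kb in control and 39.4 and 33.0 kb in mutant libraries, and the second Hoxd domain 31.6 and 31.2 kb in control and 32.8 and 30.9 kb in mutant libraries. In these 5 domains the genotypes overlapped.

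Of the 14 wide domains described, the other 8 comprised 7 at developmental regulators and 1 at a protocadherin cluster. Hand2 (chr8:59788909-59835825, 46.9 kb) had 36.6 and 40 kb of bins in control and 38.4 and 38.2 kb in mutant libraries. Pax6, the eye and forebrain regulator (chr2:105496651-105533163, 36.5 kb), had 33.6 and 33.4 kb in control and 32.6 and 33.6 kb in mutant libraries. Gata3 (chr2:9787962-9822479, 34.5 kb) had 30.4 and 28.4 kb in control and 32.2 and 29.6 kb in mutant libraries. The genotypes overlapped at all 3. At Sox2 (chr3:34536263-34571877, 35.6 kb) the bins covered 28.6 and 29.0 kb in control and 34.6 and 31.2 kb in mutant libraries, a difference of 0.18 (SE 0.064) on the log2 scale with a limma adjusted p of 0.215. Pax3, a neural crest and muscle regulator (chr1:78176418-78216881, 40.5 kb), had 29.6 and 28.2 kb in control and 32.8 and 30.8 kb in mutant libraries, and its limma adjusted p was 0.237. Both mutants lay above both controls at Sox2 and Pax3, as at Hoxa, and at none of the 14 did both lie below. In bins, both mutants lay above in 22.5% of the 653 domains and below in 22.8%. Over all shared regions these shares were 8.22% and 40.7%. The further domains of regulators were those of Dlx5 and Dlx6 of the jaw and limb skeleton (chr6:6795919-6833979) and Tbx15 of skeleton and skin (chr3:99036732-99071906). Dlx5 and Dlx6 had 32.0 and 34.6 kb in control and 34.4 and 31.8 kb in mutant libraries, and Tbx15 30 and 27.8 kb in control and 30.2 and 28.6 kb in mutant libraries, so the genotypes overlapped at each. The lowest limma adjusted p among the 14 was that of Sox2.

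The Pcdhg cluster, which encodes adhesion proteins of neurons (chr18:37889271-37929177, 39.9 kb), was the 1 domain of the 14 where MACS2 peaks covered less in both mutants, 94.9% and 98.2% against 99.7% and 99.8% in the controls. Its bins covered 38.7 and 39.9 kb in control and 36.8 and 39.0 kb in mutant libraries, so they overlapped. MACS2 peaks, which the choice of domains used, covered more in both mutants at 10 of the 14, and mutant 1 had the most of the 4 libraries at 10. Peaks covered more in both mutants in 38.4% of the 653 domains and less in 15.5%. Over all shared regions these shares were 14.7% and 38.2%. Mutant 1 had the most peak coverage in 340 of the 653 domains. Every library covered at least 82.3% of each of the 14 with peaks and at least 69.7% with bins.

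**Figure D1:**
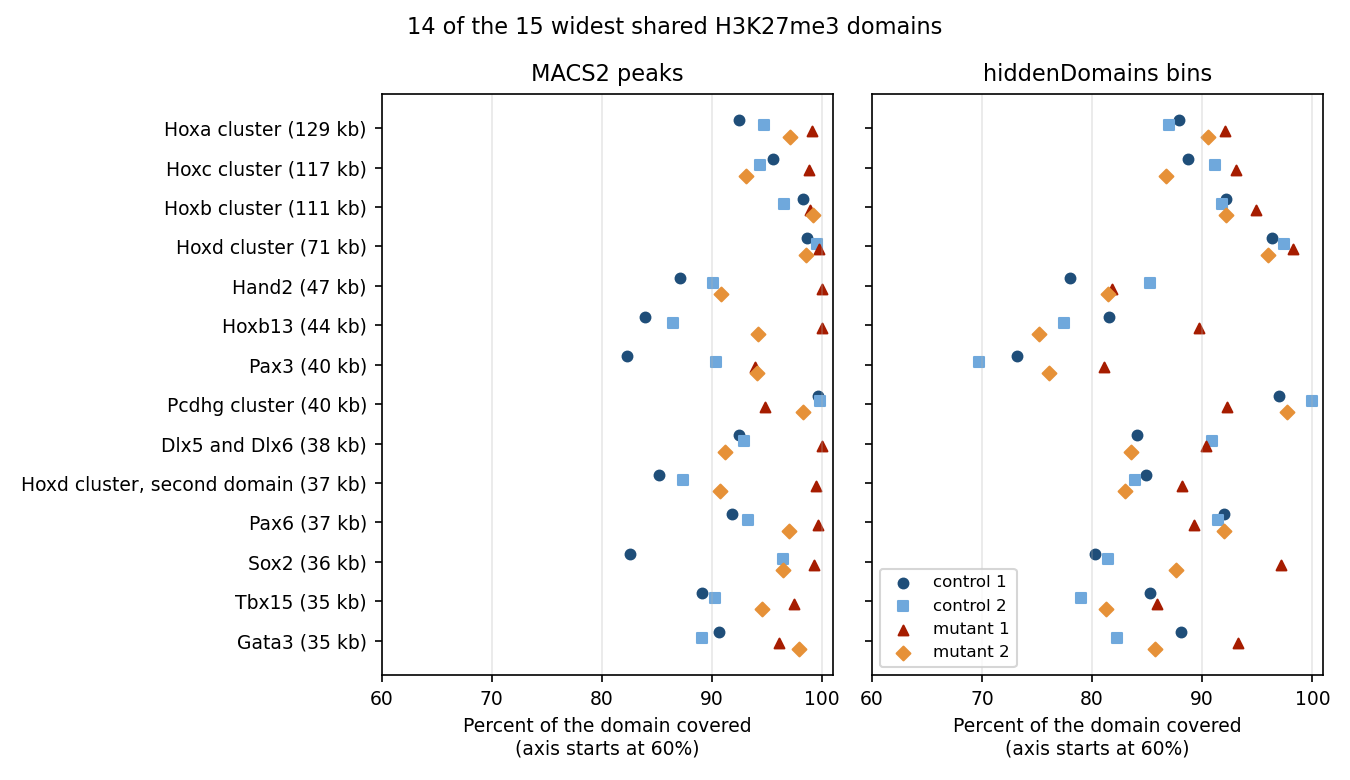
Percent of each of 14 of the 15 widest domains covered in each library, by MACS2 peaks (left) and hiddenDomains bins (right), 1 symbol per library, with the axis starting at 60%. Mutant 1 lies at the right of most rows on the left, while on the right the genotypes mix at 11 of the 14 domains, the others being Hoxa, Pax3 and Sox2.

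MACS2 coverage of the domains was high in all 4 libraries and highest in mutant 1. Peaks covered 83.0% and 84.7% of the domains' base pairs in control and 93.5% and 86.7% in mutant libraries. Medians per domain were 85.4% and 89.5% in control and 94.8% and 88.3% in mutant libraries, so the mutants' medians lay on either side of that of control 2. Domains covered over at least 95% numbered 142 and 183 in control and 316 and 165 in mutant libraries, and those covered over less than 50% numbered 37 and 44 in control and 1 and 14 in mutant libraries. The peaks chose the domains, so these values are a description without a test. Mutant 1 also had the longest peak list, 81.7 Mb over the autosomes against 67.2 and 69.7 Mb in the controls and 64.2 Mb in mutant 2. When regions were merged from the controls alone, which drops both mutants from the definition, the 469 such regions of 10 kb or more were covered over 94.4% and 96.8% in control and 94.6% and 92.6% in mutant libraries. The mean difference was then -2.03 percentage points, against 6.23 for regions merged from all 4 libraries and 9.21 for regions merged from the mutants alone. Regions merged from 1 genotype alone consist of that genotype's peaks, so its higher coverage there follows in part from the choice.

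In hiddenDomains bins the controls lay between the mutants. Bins took up 74.4% and 75.2% of the base pairs in control and 79.3% and 73.5% in mutant libraries, with mutant 1 above and mutant 2 below both controls. In length this was 7.74 and 7.82 Mb in the controls (mean 7780 ± 58.4 kb, SD, n = 2) and 8.25 and 7.64 Mb in the mutants (mean 7944 ± 429 kb, SD, n = 2). The difference of 164 kb was smaller than the spread of the mutants (two-sided exact permutation test, p = 1, and 0.333 is the smallest p that 2 against 2 allows). Without mutant 1 it was -139 kb, and for the 469 regions merged from the controls alone it was -114 kb. Medians per domain were 76.9% and 78.6% in control and 80.6% and 75.4% in mutant libraries. Domains without a single bin numbered 6 and 8 in control and 1 and 1 in mutant libraries, 12 domains lacked bins in at least 1 library, and none lacked them in all 4.

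**Figure D2:**
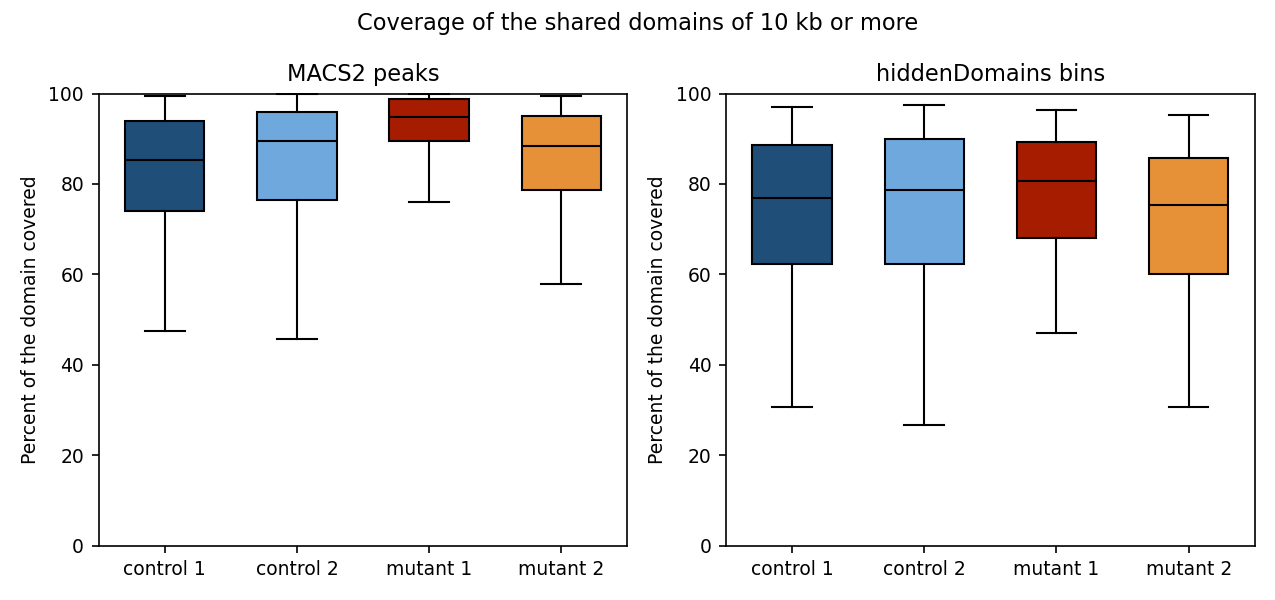
Percent of a domain covered by MACS2 peaks (left) and hiddenDomains bins (right) over the 653 domains in each library. Boxes span the quartiles with the median as a line and whiskers reach the 5th and 95th percentiles. Mutant 1 has the highest median in both panels, 94.8% and 80.6%, and mutant 2 lies near the controls.

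The domains made up a larger part of a mutant's bins than of a control's. They held 14.5% and 14.4% of the autosomal bin coverage in the controls (mean 14.5 ± 0.0559, SD, n = 2) and 16.3% and 17.2% in the mutants (mean 16.7 ± 0.629, SD, n = 2). Both mutants lay above both controls, by 2.23 percentage points on average (two-sided exact permutation test, p = 0.333, the smallest possible). The rise was not particular to the domains. Shared regions of 5 to 10 kb held 25.2% and 25.5% of the bin coverage in control and 27.4% and 28.5% in mutant libraries. Over the 469 regions merged from the controls alone the shares were 12% and 11.9% in control and 12.7% and 13.9% in mutant libraries. The total of the bins moved the other way, 53.3 and 54.1 Mb in control and 50.7 and 44.5 Mb in mutant libraries, and a share can rise where the rest of the coverage falls. Of the MACS2 coverage the domains held 12.9% and 12.6% in control and 11.9% and 14% in mutant libraries, and these overlapped.

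Relative to the controls, mutant bin coverage was higher in wide regions than in narrow ones. Against the control mean, it differed by -45.1% in shared regions under 1 kb, by -35.5% at 1 to 2 kb, by -12.8% at 2 to 5 kb and by -2.35% at 5 to 10 kb, and by 2.11% in the domains. Mutant 1 alone stood at 6.00% and mutant 2 at -1.79% in the domains. With regions merged from the controls alone the values were -20.1%, -29.0%, -13.5%, -6.20% and -1.77% in the same order, and -0.0061% for the 83 regions of 20 kb or more. With regions merged from the mutants alone they were -46.6%, -21.9%, -4.39%, 2.35% and 4.23%. No test of the classes was made beyond that of the library shares. The domains therefore stood above every narrower class under all 3 definitions, for the mean and for each mutant, while the sign of their own difference depended on the definition. The read depth of the libraries was not known here, and its part in the order of the classes was not tested.

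**Figure D3:**
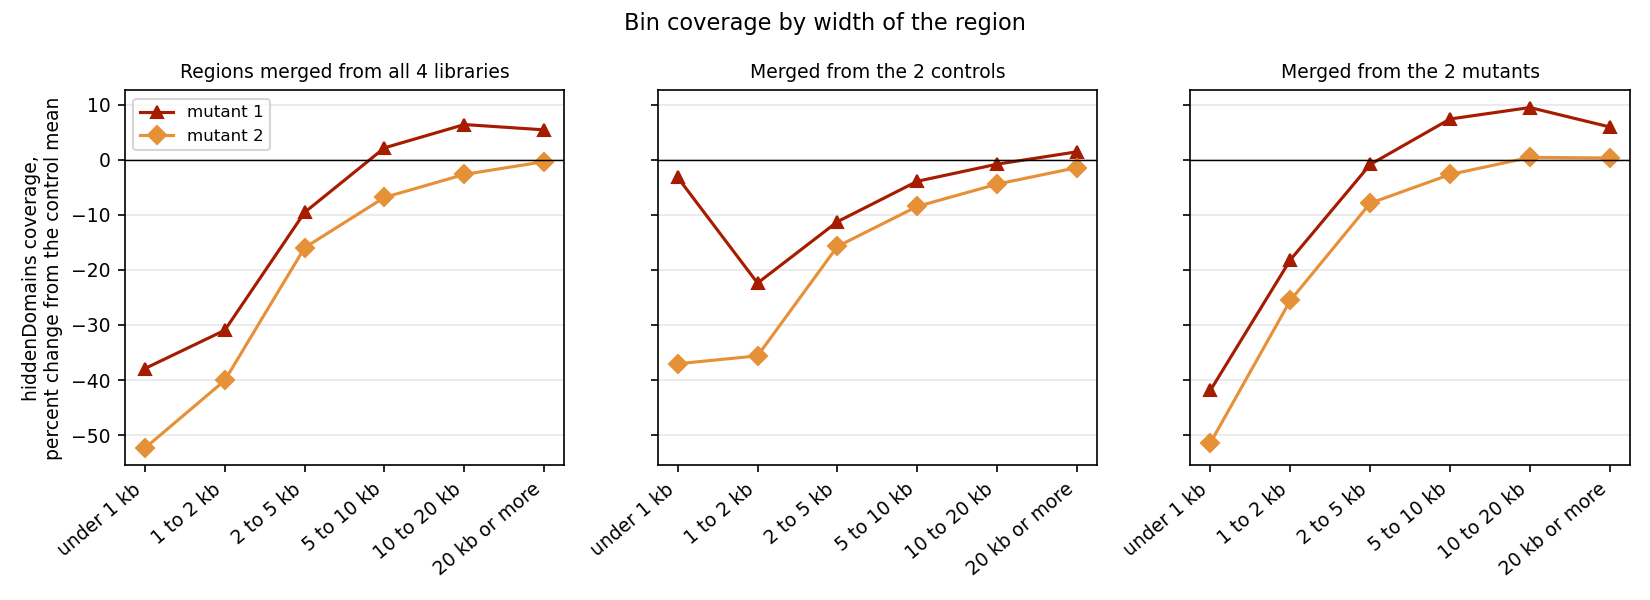
Difference of each mutant's hiddenDomains coverage from the control mean, in percent, by width of the region, with regions merged from all 4 libraries, from the controls or from the mutants. Mutant 2 lies below mutant 1 in every class, and for both mutants the domains of 10 to 20 kb lie above regions of 1 to 2 kb and 2 to 5 kb in all 3 panels.

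In which direction domains with non-overlapping genotypes differed depended on the caller and on the libraries that defined the regions. In bin coverage of the 653 domains, both mutants lay below both controls in 149 domains (22.8%), against 40.7% of all 19873 shared regions, and above them in 147 (22.5%), against 8.22% of all shared regions. Shared regions of 5 to 10 kb lay between, with 30.3% lower and 15% higher. Among the 129 domains of 20 kb or more, 18 were lower and 43 higher. For the 469 regions merged from the controls alone, 143 (30.5%) were lower, against 42.3% of all 20011 regions so merged, and 73 (15.6%) were higher, against 7.18%. In MACS2 coverage, which the choice of domains used, both mutants lay below both controls in 101 domains, where 38.2% of all shared regions did, and above them in 251, where 14.7% did. The callers gave the same direction in 68 lower and 107 higher domains, and opposite directions in 11: 10 with lower bins and higher peaks and 1 the reverse. For these joint counts no share over all shared regions is given.

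limma, fitted to log2(kb of bins + 1) over 19056 shared regions with Benjamini-Hochberg adjustment at 0.05, called 11 of the 653 domains. Of these, 7 fell in the mutants (1.07%, against 2.61% of all regions tested) and 4 rose (0.613%, against 0.352%). At an unadjusted p under 0.05, 68 domains were lower and 59 higher. Counts at this level, here and below, have no count over all regions beside them, so no excess is read from them. The median difference over the domains was 0.0002 on the log2 scale, and over all regions tested -0.12. Of the domains 78.6% lay within 0.25 of no difference, against 59.0% of all regions tested. On this scale 1 bin moves a region with few bins further than a region with many. These 2 shares therefore depend on width, and nothing about the mutants is read from their difference. These calls depended on scale: after each library was scaled to the same total of bins, the median was 0.17 over the domains and 0.0039 over all regions, and 0 domains and 0 regions passed, with 14 domains lower and 191 higher at an unadjusted p under 0.05. With a library left out, the median over the domains was 0.039 without mutant 2, -0.029 without mutant 1, -0.00045 without control 1 and 0.011 without control 2. Over all regions tested these medians were -0.095, -0.14, -0.13 and -0.11 in the same order.

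The domains that fell were all under 16 kb wide. At chr16:91295004-91305903 bins covered 9.70 and 10.3 kb in control and 5.40 and 5.60 kb in mutant libraries, a log2 difference of -0.76 (SE 0.041) whose limma adjusted p was 0.0456. At chr2:152558320-152569262 they covered 9.86 and 9.60 kb in control and 6.40 and 6.60 kb in mutant libraries, a difference of -0.52. In both domains the gap between genotypes was several times the spread within one, which follows from the choice of domains by low limma p. At chr13:63662391-63678046 the lengths were 12.8 and 12.4 kb in control and 9.20 and 9.40 kb in mutant libraries. At chr5:65192297-65204688 they were 12.1 and 12.1 kb in control and 9.20 and 9.30 kb in mutant libraries, where MACS2 gave 1 peak in each control and 3 in each mutant. The 3 others, chr18:66092593-66103449, chr18:38367258-38378651 and chr15:77165836-77176540, differed by -0.25, -0.33 and -0.26. Nearly all bins are 200 bp long, so libraries of a genotype often matched to the base, as at the first of these 3, where both controls had 10.2 kb and both mutants 8.40 kb.

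Among the 4 domains that rose, chr5:129569576-129581527 had 3.60 and 3.60 kb of bins in control and 7.40 and 7.53 kb in mutant libraries, a log2 difference of 0.88 (SE 0.018) whose limma adjusted p was 0.0456. The widest of the 4, chr6:49158601-49179952 (21.4 kb), had 9.0 and 8.8 kb in control and 14.6 and 13.8 kb in mutant libraries, a difference of 0.62. The mutants had more bins by more than the spread of either genotype in both, which again follows from the choice. At chr4:125154826-125172788 the lengths were 9.97 and 9.57 kb in control and 13.4 and 13.2 kb in mutant libraries, and at chr13:99266978-99278615 they were 7.0 and 6.8 kb in control and 9.20 and 9.20 kb in mutant libraries. The next in order, chr2:164928790-164943983, had 6.80 and 7.20 kb in control and 11 and 10.4 kb in mutant libraries and did not pass (limma adjusted p = 0.0534). Each of the 11 calls held in 4 to 7 of 12 settings of the fit, and the highest adjusted p per domain over those settings ran from 0.220 to 0.571. The settings include the main fit and that of the 20 kb minimum, which is the same fit. The counts therefore overstate how far the calls held. None held after scaling to the same library total or with the replicate number as a block.

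Fragmentation, the number of separate MACS2 peaks within a domain, differed between libraries of 1 genotype, and in peaks per domain the genotypes overlapped. The domains held 1063 and 971 peaks in control and 860 and 1031 in mutant libraries, or 1.63 and 1.49 per domain in control and 1.32 and 1.58 in mutant libraries. A single peak was found in 355 and 433 domains in control and in 473 and 369 in mutant libraries. Domains with 4 or more peaks numbered 16 and 14 in control and 1 and 9 in mutant libraries. In 231 domains (35.4%) every library had 1 peak and in 46 every library had several. Both mutants had 1 peak where both controls had several in 26 domains, and the reverse held in 23. Peaks were fewer in both mutants than in both controls in 46 domains and more in 28. A single peak that itself reached 10 kb was found in 362 and 397 domains in control and in 468 and 377 in mutant libraries. These counts are a description without a test, and no share over all shared regions is given beside them.

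**Figure D4:**
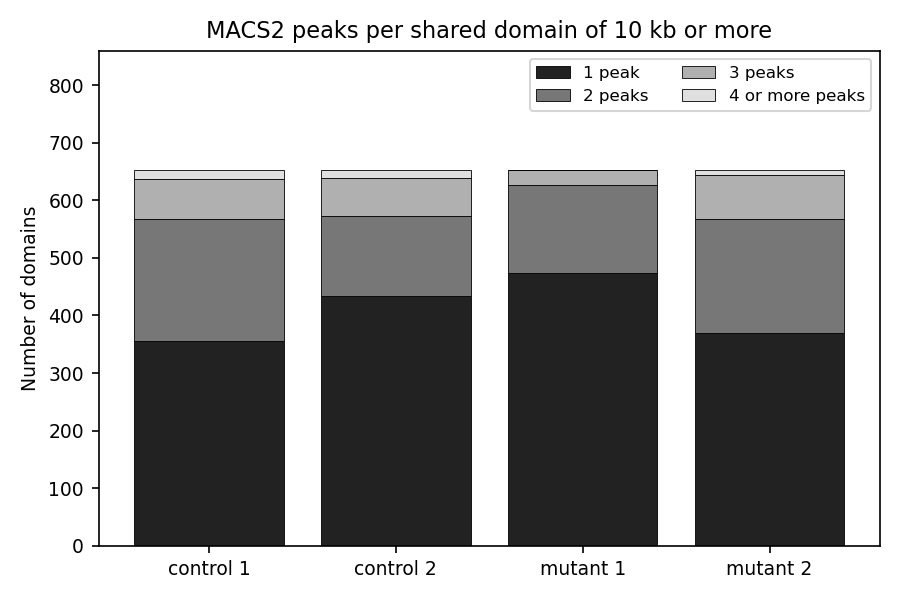
Number of domains by the number of MACS2 peaks they held in each library, stacked from 1 peak at the bottom to 4 or more at the top, 653 domains per bar. Mutant 1 has the most domains with 1 peak, 473, and the controls differ from each other, with 355 and 433.

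The 5 domains described next were chosen for the most peaks in any 1 library. No mutant library had more than 4 peaks in a domain, so this choice took domains with many control peaks, and their lower mutant counts follow from it. The Hoxa domain had 8 and 6 peaks in control and 1 and 3 in mutant libraries. Hoxb13 had 6 and 3 in control and 1 and 1 in mutant libraries. At chr1:157574638-157602043 the controls had 4 and 5 peaks over 64.0% and 61.6% of the domain, and the mutants 1 and 3 over 99.5% and 88.4%. MACS2 coverage was higher in both mutants at each of these 3. At chr11:117311057-117329434 the counts were 5 and 2 in control and 1 and 3 in mutant libraries, and at chr6:49158601-49179952 they were 5 and 2 in control and 2 and 3 in mutant libraries, so there the genotypes overlapped. Segments of touching bins gave another order from peaks: there were 2.06 and 1.91 per domain in control and 2.26 and 2.09 in mutant libraries, a difference of 0.195 (two-sided exact permutation test, p = 0.333, the smallest possible). With regions merged from the controls alone the difference was 0.0341 (exact p = 1). Shared regions of 5 to 10 kb showed the same order, with 1.28 and 1.25 segments per region in control and 1.42 and 1.29 in mutant libraries. Segments were more numerous in both mutants than in both controls in 83 domains (12.7%) and fewer in 40 (6.13%). No share over all shared regions is given beside these counts, so no difference between genotypes is read from them.

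The outer borders lay slightly wider in the mutants on average, mostly through mutant 1. From the first to the last peak a domain spanned 14.3 and 14.4 kb in control and 15.3 and 14.7 kb in mutant libraries on average. The sum of the shifts at both ends averaged 0.665 kb outward with a median of 0.298 kb, 0.329 kb of the mean at the end of lower coordinate and 0.337 kb at the other. Mutant 1 alone averaged 0.973 kb with a median of 0.54 kb, and mutant 2 alone 0.358 kb with a median of 0.054 kb. In shared regions of 5 to 10 kb the span averaged 5.32 and 5.46 kb in control and 5.89 and 5.45 kb in mutant libraries. The borders moved outward by over 1 kb in 187 domains (28.6%), inward by over 1 kb in 36 (5.51%) and by no more than 1 kb in 430. For mutant 1 alone 247 moved outward and 38 inward by over 1 kb, and for mutant 2 alone 151 and 75. No share over other shared regions is given beside these counts. Mutant 1 held the outermost peak edge at the end of lower coordinate in 259 domains and at the other in 256, against 103 to 160 for any other library. These borders define the merged regions and carry no test. In bins, the span was 13.2 and 13.2 kb in control and 14.1 and 13.3 kb in mutant libraries, a difference of 0.430 kb (two-sided exact permutation test, p = 0.333, the smallest possible). It was 0.024 kb without mutant 1 and -0.0862 kb with regions merged from the controls alone.

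The largest outward shift, 8.76 kb, was at chr11:118385619-118399989, where peaks covered 9.77% and 6.76% in control and 94.8% and 59.8% in mutant libraries. Bins there covered 0 and 0.2 kb in control and 1.6 and 0.8 kb in mutant libraries, a small part of its 14.4 kb. At chr6:55417071-55428960 the shift was 7.16 kb, and bins covered 0.600 and 0 kb in control and 4.80 and 3.20 kb in mutant libraries. At chr4:139777771-139788318 it was 7.09 kb, and bins covered at most 0.8 kb in any library. These domains reached 10 kb through the mutants' peaks. The largest inward shift, 4.42 kb, was at chr13:23519185-23529936, where peaks covered 98.9% and 77.0% in control and 24.7% and 34.1% in mutant libraries. Its bins covered 7.0 and 7.8 kb in control and 0 and 1.0 kb in mutant libraries, which is -2.57 on the log2 scale (SE 0.43) and did not pass, at a limma adjusted p of 0.0992. At chr10:60143117-60156318 and chr8:123631530-123655162 the borders moved inward by 3.20 and 3.19 kb, and there the bins overlapped between genotypes.

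Coverage was high through the interior of a domain and fell towards its ends. Each end is the outermost peak edge of any library, so the fall in peaks follows in part from the merging. Bins were read between the same ends. Over the central 2 of 20 equal parts, peaks covered 90.5% and 90.2% in control and 95.4% and 92.5% in mutant libraries, and over the outermost part at each end 44.7% and 50.5% in control and 68.9% and 50.3% in mutant libraries. Bins covered 84.2% and 84.2% of the central parts in control and 86.4% and 81.9% in mutant libraries, and 29.3% and 31.9% of the outermost parts in control and 33.0% and 25.7% in mutant libraries. In bins, mutant 2 thus lay below both controls at the ends and in the middle, and mutant 1 above them. All 4 libraries called the same 74.4% of the domains' base pairs with MACS2 and 66.2% with hiddenDomains, against 62.0% and 53.6% in shared regions of 5 to 10 kb. Mutant 1 was alone in calling 5.25% of the base pairs with MACS2. Both mutants and neither control called 3.86% with MACS2 and 2.28% with hiddenDomains, and both controls and neither mutant 1.08% and 1.88%.

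**Figure D5:**
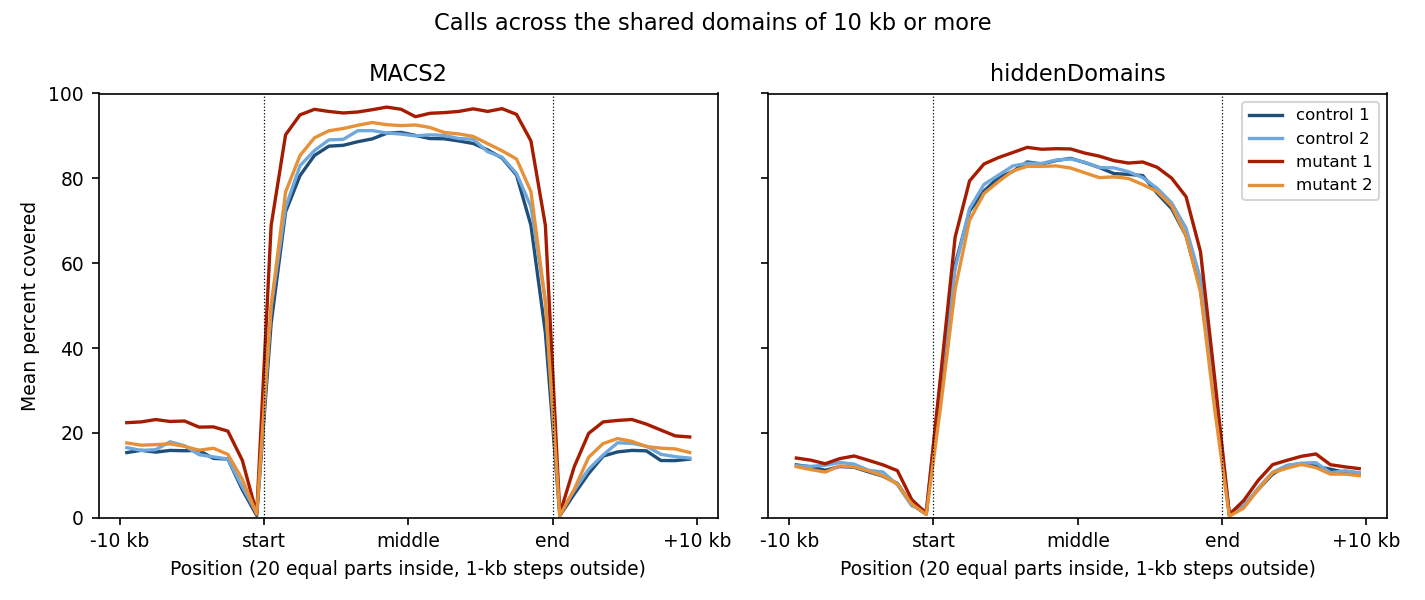
Mean percent covered across the 653 domains, each divided into 20 equal parts between its start and end, with 1-kb steps over 10 kb on either side, for MACS2 (left) and hiddenDomains (right), 1 line per library. Mutant 1 lies above the others inside the domains in both panels, and mutant 2 and the controls lie close together. The dip beside each border follows from the merging, since a domain ends where no library has a touching peak. The fall of the peaks inside each border follows in part from the same choice of ends.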

How the data were processed

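H3K27me3 ChIP-seq of 2 control and 2 Ezh2 mutant libraries was analysed from interval lists that the authors deposited per library. The deposited MACS2 lists give only where each peak starts and ends, and the deposited hiddenDomains lists hold bins, nearly all of 200 bp, with a display score whose meaning no label or header explains. The submitters' processing notes name the mm9 build, Bowtie, SAMtools and bedtools. For calling thresholds, control tracks and numbers of reads the sources used here give nothing, so the depth behind a value is unknown and covered lengths carry no correction for it.

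Regions were merged, and lengths covered, peaks, segments and borders computed per library, with Python 3.11.15, numpy 2.4.6, pandas 2.3.3 and scipy 1.17.1. Figures were drawn with matplotlib 3.10.9. Library totals and means were compared with exact permutation tests, two-sided. limma 3.58.1 (R 4.3.3, trended empirical Bayes) was fitted to log2(kb of bins + 1) over shared autosomal regions with a mean of at least 0.2 kb of bins, and all 653 domains passed that minimum. Where libraries of a genotype had equal lengths, limma offset the zero variance from 0. The scripts were tested on simulated data. hiddenDomains reads the same libraries as MACS2, so it is a second reading of them and not a second experiment.

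The members and lists were chosen with earlier results of these data known. Domains were named by rule: the 15 widest, the 5 of lowest limma p in each direction among those whose genotypes did not overlap, the 5 with the most peaks in a library, the 3 with the largest inward and outward border shifts, and the 3 nearest the width threshold. The remaining domains that limma called were added to these. Of the 15 widest, 1 is not reported here. Gene loci of the 14 others are named from general knowledge, with a look at their rough positions in a gene table of another build and without an mm9 annotation. Against that table, RefSeq's of GRCm38, all 14 lay on the named gene's chromosome, and on the 4 chromosomes with more than 1 of them the order was the same. Alternatives covered the bin score, the minimum width, the libraries that define the regions, scaling, the pseudocount, the minimum coverage, joined gaps, the replicate number as a block and each library left out.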

Additional observations from a re-analysis of the deposited data

How the results depend on the processing

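The number of domains was 1155 at a minimum of 8 kb, 224 at 15 kb and 129 at 20 kb, and between 536 and 624 with a library left out. The difference in hiddenDomains coverage between mutants and controls was -114 kb with regions merged from the controls alone, and ran from -139 kb to 467 kb with a library left out. The difference in outer span of the bins was -0.0862 kb with regions merged from the controls alone, and that in MACS2 coverage -2.03 percentage points. The count of domains that limma called was 1 at 20 kb or more (of 129), 7 with regions merged from the mutants alone (of 545, an alternative chosen after seeing the data), 0 after scaling to the same library total (14 lower and 191 higher at an unadjusted p under 0.05), 4 with the percent covered in place of log2, and 4 to 28 with a library left out, where the lone library of a genotype is assumed to vary like the others. With the percent covered, limma called 526 of all 19056 regions lower and 34 higher. With regions merged from the mutants alone it called 744 of all 19097 regions lower and 110 higher. In both settings a smaller part of the domains than of all regions was called. The counts with a library left out have no count over all regions beside them, so no excess is read from them. With the replicate number as a block limma called 0 domains and 0 of all 19056 regions (lowest adjusted p 0.220 over the domains). At an unadjusted p under 0.05 that fit had 57 domains lower and 47 higher, with no count over all regions beside them. The coverage difference stayed 164 kb. Whether the replicate numbers pair the libraries is not known. Deviations of same-numbered libraries from their group mean correlated at 0.0378 over 19056 regions and 0.121 over the domains. With 2 libraries per genotype these values cannot decide it. Apart from these, the share of library coverage held by the domains and the number of segments per domain kept their sign in every alternative run, and the cause of the changes was not tested. Depth is unknown, and with 2 libraries per genotype no exact test could fall below p = 0.333.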
